A study of Mus musculus with 6 samples.

Results

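The carboxylesterases described here are 7 mouse genes, Ces2e, Ces2a, Ces2c, Ces1d, Ces1f, Ces1g and Ces3a, measured in colon epithelium of mice fed ursodeoxycholic acid (UDCA) or a standard diet. They were taken as all probe sets whose gene symbol in the platform annotation was one of these names, among 12393 genes with a probe set of their own on the array. Of the 7 genes, 5 had at least 1 probe set of their own, 7 probe sets in all, and 4 lay above the intensity filter used for testing. Ces2c had none, and Ces3a shared its only probe set with Ces3b. The genes were chosen because results of this same diet contrast were known, so their values are given as a description, with no test.

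The UDCA group consisted of 3 pools from 6 mice whose diet contained 0.4% UDCA, a hydrophilic bile acid also used as a drug. The control group consisted of 3 pools from 6 mice on a standard diet. Each pool held RNA of 2 animals, was named 1+2, 3+4 and 5+6 in both groups, and was hybridised to 1 Affymetrix array from 3 µg total RNA. The sources used here do not give strain, sex, age or length of feeding. The labels name mouse colon epithelium as the source, but list IEC-6, which is an intestinal cell line from rat, as well. The arrays were taken as the mouse tissue that source and organism name. In pooled tissue RNA, fewer cells of a type and less RNA per cell cannot be told apart.

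Carboxylesterases are serine hydrolases of the endoplasmic reticulum that cleave ester, thioester and amide bonds. They hydrolyse drugs, pesticides and other foreign esters as well as acylglycerols and cholesteryl esters. Enzymes of the Ces2 group are abundant in intestine and liver, whereas several Ces1 and Ces3 enzymes are best known from liver, where Ces1d takes part in mobilising stored triglyceride for lipoprotein assembly. In the mouse, the genes lie on chromosome 8 in a pair of tandem clusters. In RefSeq order the first holds 9 genes, Ces1a to Ces1h and Ces5a, and includes Ces1d, Ces1f and Ces1g. The other holds 11 genes, Ces2a to Ces2h, Ces3a, Ces3b and Ces4a, and includes the other 4 genes described here.

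Promoter sequences from RefSeq (GRCm38.p6) cover 250 bases before and 50 bases after each gene's start, and entries were found for 4 of the 7 genes, Ces2e, Ces2a, Ces2c and Ces1g. The promoters of Ces2e and Ces2a are shown because these genes of the same cluster, with Ces2b, Ces2c and Ces2d-ps between them, differed in how their signal was distributed over the pools, as described below. Ces2e lies on the + strand with its window at chr8:104926010-104926309, and the Ces2a window, also on the + strand, is chr8:104733753-104734052. Capitals mark runs of at least 12 bases present in both.
Ces2e: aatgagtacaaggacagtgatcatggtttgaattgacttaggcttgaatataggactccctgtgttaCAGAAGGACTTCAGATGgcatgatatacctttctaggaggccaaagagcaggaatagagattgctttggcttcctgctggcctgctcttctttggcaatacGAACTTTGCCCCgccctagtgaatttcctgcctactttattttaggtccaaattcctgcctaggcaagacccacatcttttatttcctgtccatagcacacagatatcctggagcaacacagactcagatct
Ces2a: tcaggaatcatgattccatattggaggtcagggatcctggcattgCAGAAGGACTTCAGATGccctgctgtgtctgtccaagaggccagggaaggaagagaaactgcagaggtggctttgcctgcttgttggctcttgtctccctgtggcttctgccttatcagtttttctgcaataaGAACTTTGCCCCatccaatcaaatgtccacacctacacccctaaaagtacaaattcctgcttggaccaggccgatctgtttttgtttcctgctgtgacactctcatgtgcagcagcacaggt

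Across the alignment of these promoters, 199 of 339 columns were identical (58.7%), against 66.9% between Ces2a and Ces2c. The same kind of alignment gave 48.1% (Ces1c) to 53.2% (Ces1e) between Ces2e and promoters of the first cluster. The longer shared run, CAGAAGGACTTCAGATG, is 17 bases long and begins 183 bases before the start of Ces2e and 205 bases before that of Ces2a. Among 32851 mouse promoter windows it was found in these 2 alone (0.00609%). The shorter run, GAACTTTGCCCC, is 12 bases long, begins 82 and 72 bases before the starts of Ces2e and Ces2a, and was found in 3 windows (0.00913%). Both runs were picked by aligning the sequences, so their rarity is a description.

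The same windows were searched on both strands for AGGTCA and AGTTCA, half-sites of nuclear receptors, and for TGACNNNGC, the core of the antioxidant response element. AGGTCA was present once in Ces2a, 226 bases before the start, and was present in 16.3% of all windows. The promoters of Ces2e, Ces2c and Ces1g held none of the motifs. AGTTCA was present in 14.0% of all windows and TGACNNNGC in 12.4%, and 36.3% held at least 1 of the 3, against 1 of the 4 carboxylesterase promoters listed. No match overlapped another in these windows.

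Signals are Affymetrix intensities on a linear scale after quantile normalization, which gives all arrays the same distribution. A signal of one probe set cannot be set against that of another, so each is compared only between pools. Before normalization the array medians were 72.9, 87.2 and 68.1 in the UDCA pools and 67.4, 75.1 and 83.9 in the control pools. The colonocyte markers were bright, for example Car1, a carbonic anhydrase, at 6739, 6966 and 6902 in the UDCA pools and 7066, 7096 and 6671 in the control pools. All 7 colonocyte and 5 epithelial markers on the array lay above the filter, and fibroblast and endothelial markers were all below it. None of the marker lists examined separated the groups by its summed signal. A sum can hide opposite differences. Among the enteroendocrine markers, Gcg and Insl5 were higher, and Chga and Chgb lower, in every UDCA pool than in any control pool. Tac1 and Pyy did not separate the groups. Over all genes fitted, 19.8% had groups that did not overlap.

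Ces2e, a Ces2 enzyme annotated as a pyrethroid hydrolase, showed the largest difference of the measured members. Its probe set, 1427137_at, had intensities of 551, 955 and 339 in UDCA pools 1+2, 3+4 and 5+6, against 226, 165 and 225 in the control pools of the same numbers. Every UDCA pool lay above every control pool, the closest being UDCA pool 5+6. On this scale the groups did not overlap for 19.8% of all genes fitted, 11.1% being higher in UDCA. The means were 615 ± 313 in UDCA and 205 ± 35.0 in control (SD, n = 3 pools each), a ratio of 3.00. On the log2(intensity + 16) scale, which understates differences of dim probe sets, UDCA minus control was 1.40 (SE 0.44).

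The UDCA pools differed among themselves more than the control pools for Ces2e, with highest over lowest at 2.82-fold in UDCA and 1.37-fold in control. Pool 3+4 held the highest UDCA value, and pool 3+4 the lowest control value. On the deposited scale, without normalization, Ces2e had 553, 1128 and 314 in the UDCA pools against 195, 162 and 248 in the control pools, and the groups again did not overlap. On that scale 7.64% of all genes had groups that did not overlap, 3.61% higher in UDCA and 4.03% lower.

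Ces2a, also annotated as a pyrethroid hydrolase, varied as widely over the UDCA pools but not between the diets. Its intensities were 518, 993 and 366 in the UDCA pools against 737, 732 and 397 in the control pools. All control pools lay within the range of the UDCA pools, and pool 5+6 was the lowest in each diet. The means were 626 ± 327 in UDCA and 622 ± 195 in control (SD, n = 3 pools each). The log2 difference was -0.058 (SE 0.50), and it was 0.044 on the deposited scale and 0.036 after centring arrays on their medians. With 1 pool left out it lay between -0.44 and 0.26, so its sign is not settled.

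Of the 7 colonocyte markers, 3 were also lowest in pool 5+6 of each diet, Car4, Slc26a3 and Aqp8, a water channel, which had 5240, 5357 and 696 in the UDCA pools against 2601, 3057 and 1993 in the control pools. Guca2a, the guanylin gene, was highest in pool 5+6 of each diet, at 4357, 4412 and 7163 in the UDCA pools against 5009, 5281 and 6586 in the control pools. Car1, Krt20 and Ceacam1 did neither. The summed colonocyte markers were 32355, 36682 and 28581 in the UDCA pools against 33539, 35136 and 31278 in the control pools, so the sum was lowest in pool 5+6 of each diet. Their part in the Ces2a and Ces2e values was not tested.

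**Figure D1:**
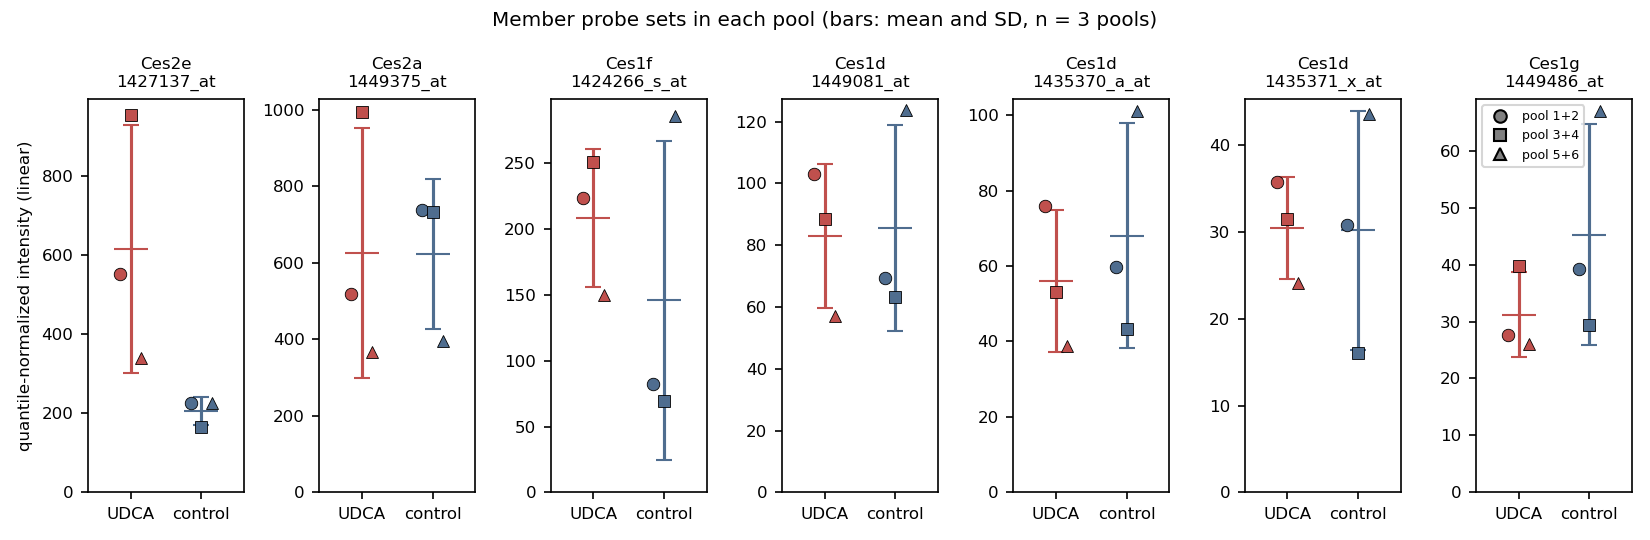
Intensity of each carboxylesterase member's probe sets in every pool, UDCA pools left of control pools, after quantile normalization. Points are pools of 2 animals, long horizontal lines are group means and bars are the SD of 3 pools. The 3 UDCA pools of Ces2e sit between 339 and 955, above the control pools at 165 to 226, and the groups of the other members overlap.

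Ces2c, an acylcarnitine hydrolase that also cleaves diacylglycerol and triacylglycerol in intestine and liver, was not measured by a probe set annotated to it. Another probe set, 1424245_at, had no entry in the annotation table, and the authors' deposited table describes it as similar to carboxylesterase 2. It was looked at after the values had been seen and is given by its identifier, with no gene assigned. It had 2376, 3816 and 889 in the UDCA pools against 3021, 2364 and 1348 in the control pools. As for Ces2a, the groups overlapped and pool 5+6 was the lowest of each diet. The means were 2361 ± 1463 in UDCA and 2245 ± 843 in control (SD, n = 3 pools each), and the log2 difference was -0.083 (SE 0.70).

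Signals of Ces2e, Ces2a and 1424245_at were also compared within each pool as a log2 difference between probe sets, whose absolute value depends on probe brightness and of which only the change between pools is read. The comparison was chosen after the values had been seen. Ces2e minus Ces2a was 0.086, -0.056 and -0.11 in the UDCA pools, against -1.64, -2.05 and -0.77 in the control pools. The UDCA values spanned only 0.20 although Ces2e varied 2.82-fold and Ces2a 2.71-fold among those pools, while the control values spanned 1.27. The groups did not overlap, with means of -0.026 ± 0.10 in UDCA and -1.49 ± 0.65 in control (SD, n = 3 pools each), 1.46 apart.

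The unassigned probe set gave a similar shift with a wider spread. Ces2e minus 1424245_at was -2.08, -1.98 and -1.35 in the UDCA pools, against -3.65, -3.72 and -2.50 in the control pools, and the group means were 1.49 apart. The values spanned 0.72 in UDCA and 1.22 in control. Ces2a minus 1424245_at averaged -1.78 ± 0.48 in UDCA and -1.80 ± 0.18 in control (SD, n = 3 pools each), a difference of 0.025, smaller than the spread of the pools. Relative to Ces2a or to 1424245_at in the same pool, the Ces2e signal was higher in every UDCA pool than in any control pool. Because the means of Ces2a and 1424245_at hardly differed between the diets, these shifts largely repeat the Ces2e difference of 1.40. They are no further evidence for it, and no share over other pairs of genes was computed.

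**Figure D2:**
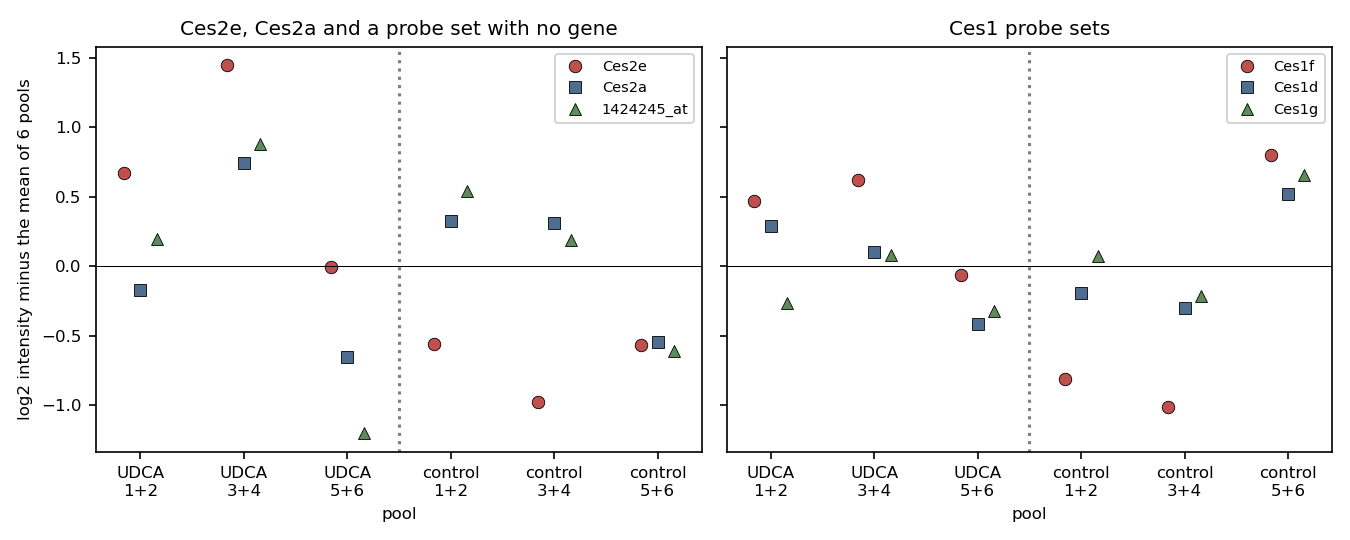
Log2(intensity + 16) of each probe set minus its mean over all 6 pools, UDCA pools left of control pools, for Ces2e, Ces2a and 1424245_at on the left and Ces1 probe sets on the right. Ces2a and 1424245_at are lowest in pool 5+6 of each diet, whereas Ces1f, Ces1d and Ces1g have their highest point in control pool 5+6.

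Ces1f, a liver and adipose lipid hydrolase related to Ces1d, was higher in UDCA in the mean only. Its only probe set, 1424266_s_at, has the same kind of suffix as the probe set shared by Ces3a and Ces3b. It may therefore also detect related transcripts. Its intensities were 224, 251 and 150 in the UDCA pools against 82.7, 69.7 and 286 in the control pools. Control pool 5+6 exceeded every UDCA pool, and the other control pools lay below all of them. The means were 208 ± 52.1 in UDCA and 146 ± 121 in control (SD, n = 3 pools each), with a log2 difference of 0.69 (SE 0.61). Without control pool 5+6 the difference was 1.26 and the groups did not overlap, as was then so for 39.8% of all genes fitted, 20.7% being higher in UDCA.

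Ces1d, the triacylglycerol hydrolase of liver and adipose tissue, was represented by 3 probe sets. The brightest, 1449081_at, had 103, 88.5 and 57.3 in the UDCA pools against 69.3, 63.2 and 124 in the control pools, a log2 difference of -0.018 (SE 0.33). The second, 1435370_a_at, lay below the filter and had 76.0, 53.2 and 38.8 in the UDCA pools against 59.8, 43.3 and 101 in the control pools, with a log2 difference of -0.20 (SE 0.36). The groups overlapped for each, and control pool 5+6 was the highest.

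The third Ces1d probe set, 1435371_x_at, whose suffix marks probes that may cross-hybridise, was dimmer still. It had 35.8, 31.4 and 24.1 in the UDCA pools against 30.8, 16.1 and 43.6 in the control pools. Its log2 difference of 0.047 (SE 0.28) had the opposite sign to the others, and all 3 differences were smaller than their standard errors.

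Ces1g, a liver carboxylesterase that limits lipid synthesis there, was below the filter. Its intensities were 27.7, 39.7 and 26.0 in the UDCA pools against 39.3, 29.5 and 66.9 in the control pools. Control pool 5+6 was again the highest, and UDCA pool 3+4 lay among the control values. The means were 31.2 ± 7.47 in UDCA and 45.2 ± 19.4 in control (SD, n = 3 pools each), with a log2 difference of -0.34 (SE 0.29). Without UDCA pool 3+4 the difference was -0.47 and the groups did not overlap, as was then so for 29.4% of all genes fitted, 13.3% being lower in UDCA.

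All 5 Ces1 probe sets of the members were highest in control pool 5+6. Several of them measure Ces1d, and probes of related genes may cross-hybridise, so they are not independent. Of the other Ces1 genes measured, both below the filter, Ces1c was lowest in control pool 5+6 and Ces1e highest in UDCA pool 1+2. The share of all genes highest in control pool 5+6 was not computed. Within a pool, Ces1f minus Ces1d was 1.01, 1.35 and 1.18 log2 units in the UDCA pools against 0.21, 0.11 and 1.11 in the control pools. Fabp2, the intestinal fatty acid binding protein, had 1748, 1501 and 1188 in the UDCA pools against 228, 393 and 1683 in the control pools. Its control pool 5+6 was the highest control pool but lay among the UDCA values, not above them. The other 3 small intestine enterocyte markers above the filter were lowest, not highest, of the control pools in 5+6. Of these, Slc15a1, a peptide transporter, had 291, 510 and 320 in the UDCA pools against 608, 668 and 268 in the control pools, and Rbp2, a retinol binding protein, had 197, 297 and 89.0 in the UDCA pools against 191, 194 and 49.7 in the control pools. Slc5a1, a glucose transporter, had 1094, 1170 and 1118 in the UDCA pools against 1368, 1463 and 1168 in the control pools. The part of these markers in the Ces1 values was not tested.

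Because Ces1d, Ces1f and Ces1g are liver genes and Ces1d and Ces1f are also adipose genes, markers of those tissues were read beside them. Of 8 hepatocyte markers 7 were on the array, and their sum was 2030 to 2283 in the UDCA pools and 1905 to 2728 in the control pools, nearly all of it from Ttr, which enteroendocrine cells also express. Fgb, a fibrinogen chain, did not exceed 1.5 on any array, and Ahsg, a plasma glycoprotein, did not exceed 8.9. Alb, the albumin gene, was 123, 50.1 and 88.8 in the UDCA pools against 23.7, 33.3 and 54.2 in the control pools. Tat, a tyrosine aminotransferase and with Ttr the only list gene above the filter, had 51.2, 117 and 65.6 in the UDCA pools against 74.9, 146 and 76.1 in the control pools. Of 7 adipocyte markers 5 were on the array, none above the filter, with sums of 27.2 to 63.5 in the UDCA pools and 47.5 to 63.8 in the control pools, and Adipoq, the adiponectin gene, did not exceed 10.7.

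Ces3a, a liver carboxylesterase, shares its only probe set, 1451600_s_at, with Ces3b, and no value was assigned to either gene. The probe set had 9.68, 9.02 and 14.9 in the UDCA pools against 12.4, 0.967 and 1.58 in the control pools. These signals were among the dimmest of the family and the groups overlapped.

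**Figure D3:**
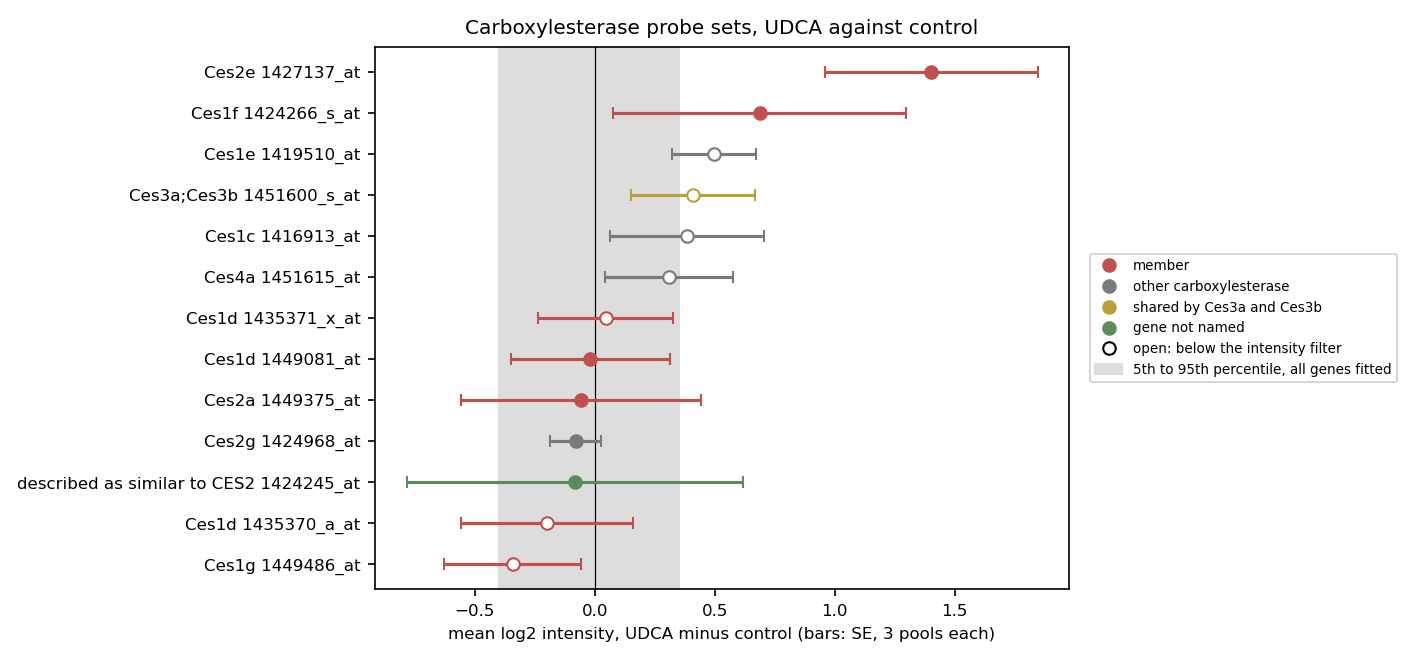
Difference of mean log2(intensity + 16), UDCA minus control, for the 13 carboxylesterase probe sets, with bars giving the SE from 3 pools per group. Ces2e (1.40), Ces1f (0.69), Ces1e (0.50), the probe set shared by Ces3a and Ces3b (0.41) and Ces1c (0.38) lie to the right of the grey band, which spans the 5th to 95th percentiles of all genes fitted (-0.40 to 0.35), and open symbols lie below the intensity filter.

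Over the 5 measured members, 2 differences were positive and 3 negative, and Ces2e alone had groups that did not overlap, with no member wholly lower in UDCA. Over all 6770 genes fitted, 19.8% had groups that did not overlap, 11.1% higher in UDCA and 8.69% lower. The median difference of all genes was 0.00078 log2 units, and 50.1% were positive. The members were chosen on this contrast, and nothing is read from these counts.

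Of the 13 other carboxylesterase genes, 4 had a probe set of their own and 1 lay above the filter. That gene, Ces2g, had 218, 222 and 189 in the UDCA pools against 241, 198 and 229 in the control pools, with a log2 difference of -0.079 (limma SE 0.12, adjusted p = 0.783). Ces1e, also called egasyn, which holds glucuronidase in the endoplasmic reticulum, was below the filter at 47.9, 47.5 and 44.1 in the UDCA pools against 20.7, 26.8 and 39.3 in the control pools. Its groups did not overlap on this scale, as for 16% of all genes without the filter (8.73% higher in UDCA and 7.25% lower), but overlapped as deposited, at 46.2, 54.1 and 38.7 in the UDCA pools against 18.5, 25.8 and 43.6 in the control pools. 

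The other dim genes of that list had overlapping groups. Ces1c, a plasma esterase of rodents, had 7.55, 19.8 and 24.6 in the UDCA pools against 14.3, 11.5 and 2.48 in the control pools. Ces4a had 40.2, 55.8 and 51.8 in the UDCA pools against 54.2, 22.9 and 36.6 in the control pools.

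Likeness between genes was measured as the root mean square (RMS) difference of their centred log2 profiles over the 6 arrays, a description that holds the diet contrast and the array variation together. It is small for any pair of genes that vary little, so it was read against the median over all genes. For Ces2e, whose own RMS deviation was 0.83, the median over the 6769 other genes was 0.84. The most similar was Creld2 at 0.31, an endoplasmic reticulum protein induced by unfolded proteins, followed by Apoc2 (0.39), the apolipoprotein that activates lipoprotein lipase. Stip1 and Hsph1, cochaperones of the heat shock proteins, were at 0.40 each, and the kinase gene Sgk2 at 0.41.

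Creld2 had 872, 1054 and 564 in the UDCA pools against 402, 389 and 430 in the control pools, so that pool 3+4 was the highest and pool 5+6 the lowest of the UDCA pools, as for Ces2e. The limma difference was 0.96 log2 units (adjusted p = 0.285). Apoc2, the 1 gene that passed the threshold over all genes, had 279, 364 and 292 in the UDCA pools against 101, 98.1 and 84.8 in the control pools, a log2 difference of 1.56 (limma SE 0.13, adjusted p = 0.0118). Its call was lost without UDCA pool 1+2 or 3+4 or control pool 1+2 or 3+4, with limma adjusted p of 0.0605 to 0.0951.

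Stip1 had 743, 842 and 507 in the UDCA pools against 365, 346 and 457 in the control pools. Hsph1 had 1467, 1395 and 524 in the UDCA pools against 280, 341 and 570 in the control pools, with control pool 5+6 above UDCA pool 5+6. Sgk2 had 511, 771 and 257 in the UDCA pools against 271, 306 and 224 in the control pools. The limma adjusted p was 0.285 for Stip1, 0.295 for Hsph1 and 0.343 for Sgk2.

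The other members resembled different genes. Closest to Ces2a were Eno3, a muscle-type enolase, and Trp53inp1, a p53-induced protein, both at 0.18 against a median of 0.53 over all genes. Ces2e stood at 0.82 from Ces2a, rank 2900 of the genes ordered by likeness to Ces2e. For the unassigned probe set 1424245_at, Ces2a was at 0.30 and ranked 5, after genes led by Sprr2k (0.23), a cornified envelope protein gene, and Atp12a (0.24), the colonic proton pump gene. For Ces1f the closest were Fgl2 (0.31) and Ifi27l2b (0.35), with a median of 0.72, and Ces1d was at 0.48. For Ces1d they were Fhl2 (0.11) and Ears2 (0.13), with a median of 0.37.

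The pathways around these enzymes were described by 6 further lists of genes chosen by role. With Ces2g, the 7 lists held 98 genes, of which 59 were fitted. Limma called 0 of the 59 (smallest adjusted p = 0.287) against 0.0148% called among all genes. It gave 11 of the 59 (18.6%) an unadjusted p under 0.05, against 973 of 6770 genes (14.4%). The groups did not overlap for 6 of the 59, against 19.8% of all genes fitted (11.1% higher in UDCA and 8.69% lower). Of these, Lypla1, Plin3 and Ddhd2 were higher and Pnpla8, Klf5 and Gata6 lower in UDCA. The genes named below are the 4 of each list with the smallest p. Counts of positive differences shift with the scaling, for example to 9 of 9 related esterases on the deposited scale and 5 of 9 under trimmed mean scaling.

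Of 17 genes of triglyceride synthesis and lipoprotein assembly, 11 were fitted, 10 had positive differences and 4 reached an unadjusted p under 0.05, with a list median of 0.21 log2 units. Tm6sf2, which serves lipidation of lipoproteins in liver and intestine, had 246, 256 and 110 in the UDCA pools against 94.4, 115 and 108 in the control pools, a log2 difference of 0.77 (limma SE 0.27, adjusted p = 0.297). Apob, the structural apolipoprotein, had 168, 318 and 149 in the UDCA pools against 102, 151 and 119 in the control pools, a difference of 0.65 (adjusted p = 0.324). The acyltransferase genes Dgat2 and Dgat1, which complete triglyceride synthesis, differed by 0.58 and 0.32 (adjusted p = 0.343 and 0.345). Each of these 4 genes had groups that overlapped.

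The neutral lipid hydrolysis list had 11 of 18 genes fitted, 8 positive, 2 of them at an unadjusted p under 0.05 and none lower at that level, and a median of 0.036. Abhd6, a monoacylglycerol hydrolase, had 593, 622 and 393 in the UDCA pools against 304, 369 and 415 in the control pools, a log2 difference of 0.53 (limma adjusted p = 0.299). The lipid droplet protein genes Plin3 and Cideb differed by 0.22 and 0.34, and Pnpla8, a phospholipase of mitochondria and peroxisomes, by -0.24 (limma adjusted p = 0.345, 0.366 and 0.347).

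Related esterases had 9 of 16 genes fitted, 6 positive, with 2 at an unadjusted p under 0.05 and a median of 0.055. Lypla1, an acyl-protein thioesterase, had 1188, 1257 and 1301 in the UDCA pools against 1017, 1067 and 1112 in the control pools, and its groups did not overlap (log2 difference 0.23, limma adjusted p = 0.311). Aadac, the microsomal arylacetamide deacetylase, had 657, 685 and 723 in the UDCA pools against 489, 464 and 680 in the control pools, with a difference of 0.35 (limma adjusted p = 0.343). Cmbl, which activates ester prodrugs, and Pon3, a lactonase, differed by 0.11 and 0.072 (limma adjusted p = 0.674 and 0.819).

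The list of endoplasmic reticulum retention and glucuronidase had 4 of 4 genes fitted, 0 at an unadjusted p under 0.05 and a median of 0.090. Gusb, the glucuronidase, differed by 0.12. The retention receptors Kdelr2, Kdelr3 and Kdelr1 differed by 0.11, 0.072 and -0.042, and Kdelr1 was at 0.092 on the deposited scale and 0.084 after median centring.

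Phase I enzymes other than esterases had 11 of 14 genes fitted, 5 positive, 1 lower at an unadjusted p under 0.05, and a median of -0.033 that was 0.091 on the deposited scale and 0.083 after median centring. Ephx2, the soluble epoxide hydrolase, had 63.0, 114 and 86.6 in the UDCA pools against 117, 171 and 109 in the control pools, a log2 difference of -0.52 (limma adjusted p = 0.342). Cbr3, a carbonyl reductase, differed by 0.49, Adh1, an alcohol dehydrogenase, by -0.16 and Cyb5r3, the cytochrome b5 reductase, by -0.22. The limma adjusted p was 0.391 for Cbr3, 0.360 for Adh1 and 0.401 for Cyb5r3. With its probe sets averaged, Cyb5r3 differed by only -0.064.

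Regulators had 12 of 16 genes fitted, 7 positive, 2 lower at an unadjusted p under 0.05, and a median of 0.012 that was -0.011 under trimmed mean scaling. Nr1i2, the pregnane X receptor, a xenobiotic sensor that activates carboxylesterase genes in liver, had 149, 145 and 130 in the UDCA pools against 230, 242 and 146 in the control pools, a log2 difference of -0.47 (limma adjusted p = 0.311). The difference was -0.68 without control pool 5+6. It was -0.10 without control pool 3+4 and -0.15 without control pool 1+2, but these values do not follow from the intensities above. The brightest probe set was picked anew in each fit, so another probe set of the gene may have been used there. With the probe sets of the gene averaged over all pools, the difference was -0.33. Klf5, a crypt transcription factor, had 3299, 3366 and 3827 in the UDCA pools against 4698, 4324 and 4093 in the control pools, and its groups did not overlap (difference -0.32, limma adjusted p = 0.287). Cdx2, a transcription factor of intestinal identity, had 671, 427 and 742 in the UDCA pools against 119, 263 and 735 in the control pools, with control pool 5+6 among the UDCA values (difference 1.01, limma adjusted p = 0.402). Gata6, another epithelial factor, differed by -0.17 (adjusted p = 0.415).

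**Figure D4:**
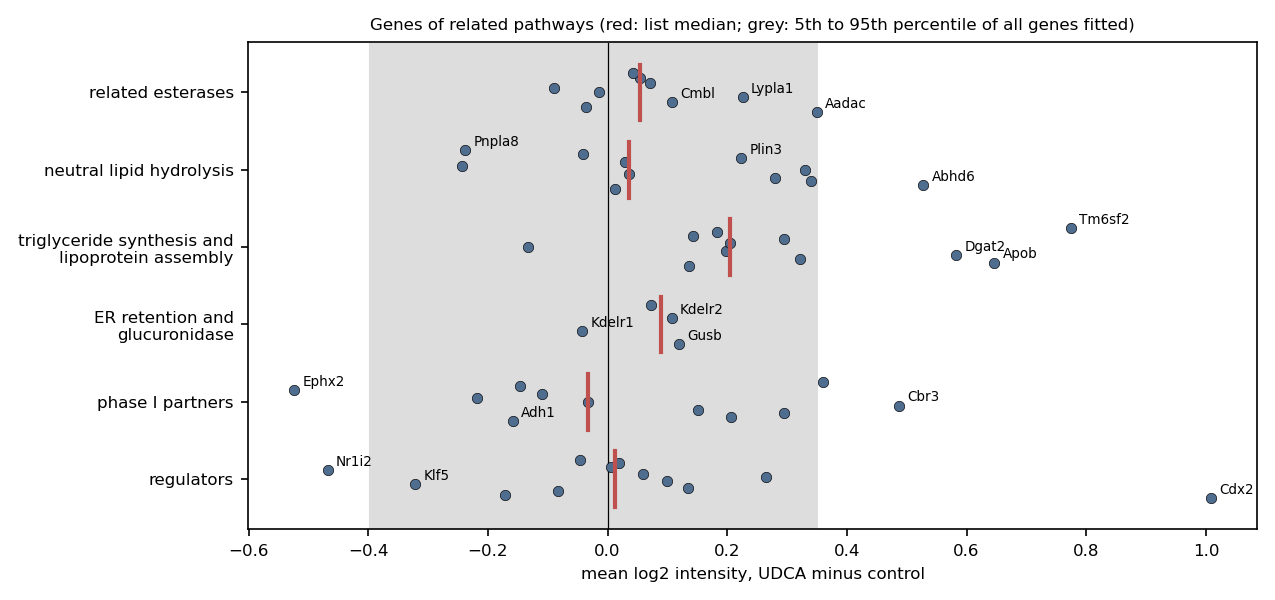
Difference of mean log2(intensity + 16), UDCA minus control, for each fitted gene of 6 pathway lists, with red bars at list medians. The list of triglyceride synthesis and lipoprotein assembly has its median at 0.21 and 10 of 11 genes right of zero, the other medians lie between -0.033 and 0.090, and the grey band spans the 5th to 95th percentiles of all genes fitted.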

How the data were processed

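Colon epithelium pools of mice were grouped by the diet the labels name. The authors deposited 1 signal intensity per probe set and array, made with GCOS per the submitters' processing notes, with version, scaling and detection calls not given in the sources used here. A second deposited table gave averages, which in 22690 of 22690 rows matched, within 0.0051, the mean of the UDCA arrays in the column headed T and the mean of all arrays, not of the controls, in the column headed N. It supplied the description of 1 probe set. Intensities were quantile-normalized, because the array levels differed as deposited, and log2(intensity + 16) was taken.

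Gene names came from the platform annotation, in which 20393 probe sets had 1 symbol, 691 several and 1606 none. The 64 controls were left out. Tests used limma 3.58.1 in R 4.3.3 (lmFit, eBayes with trend, two-sided, Benjamini-Hochberg over 6770 genes by their brightest probe set, threshold 0.05) on the brighter 50% (11313 probe sets), from a mean intensity of about 76.0. The fit was also run on simulated data in which the noise of each probe set was independent. Pool effects shared by a group of genes were not simulated, so that run does not cover them. The members and lists were chosen with earlier results of these data known. In each list the 4 genes with the smallest p are named, for likeness the 5 closest genes to Ces2e and 2 to other members, and any gene past the threshold. Alternatives were other scalings, pseudocounts, filters, eBayes settings and probe set rules, a replicate block, and each array left out. Sequences came from RefSeq. The pools come from different animals, and the number of arrays limits the precision.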

Additional observations from a re-analysis of the deposited data

How the results depend on the processing

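With 3 pools per group, depth of signal limits the dim members: Ces1g and all Ces1d probe sets but 1 lay below the filter. Genes called by limma numbered 1 in the fit used, 54 on the deposited scale, 0 without a filter, over 12393 genes (1368 at an unadjusted p under 0.05), and 0 in the upper 25%, a filter that removes Apoc2 (522 at that p). With arrays left out in turn the count was 0 to 33: 33 without control pool 5+6, 9 without UDCA pool 5+6, and 0 without any of the other 4 (484 to 685 at an unadjusted p under 0.05). On the deposited scale the array levels enter the spread (prior degrees of freedom 53.3, against 4.44 after quantile normalization). Apoc2 was not past the threshold without a filter (adjusted p = 0.0666) or in 4 of the leave-one-out fits.

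Ces2e was 1.03 to 1.76 with arrays left out and 1.24 to 1.48 over scalings and pseudocounts. With arrays left out, Ces1f was 0.35 to 1.26, Ces1g -0.53 to -0.099, Ces2a -0.44 to 0.26 and Ces1d -0.17 to 0.24. The sign turned for Ces2a also on the deposited scale (0.044) and after centring (0.036). Members whose groups did not overlap numbered 1 to 2, Ces1g joining without UDCA pool 3+4 (29.4% of all genes did not overlap then) and Ces1f without control pool 5+6 (39.8%). Pathway list genes called numbered 0 to 1, the 1 being Tm6sf2 without UDCA pool 5+6 (1.14, adjusted p = 0.0419). Among list genes named, the sign turned for Kdelr1 (0.092 deposited, 0.084 centred, 0.046 without UDCA pool 3+4), Kdelr2 (-0.021 without control pool 5+6), Kdelr3 (-0.24 without UDCA pool 5+6, -0.081 without control pool 1+2) and Pon3 (-0.038 without UDCA pool 5+6), and the cause was not tested. Over all probe sets fitted, deviations of pools of the same number correlated weakly, at -0.10 for 1+2, 0.16 for 3+4 and 0.05 for 5+6. Pools of unlike number correlated at -0.20 to 0.15, and not every pool correlated best with its own number. With the pool number as a replicate block 1 gene was called, and the blocked fit changed no other call. Single genes can differ from this, and for Ces2a the limma SE was 0.18 with the block and 0.36 without it. In this balanced layout a block cannot change the differences themselves, so Ces2e stayed at 1.40 by design.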

Other observations

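Of the list genes on the array, 21 were too dim to be fitted, and they are given as values with no test. The groups did not overlap for 6 of them, Ces1e, Bche, Pnpla3, Pnliprp2 and Mogat2 being higher and Lipe lower in UDCA. Without the filter this was so for 16% of all genes, 8.73% higher in UDCA and 7.25% lower. That share includes the brighter genes, and none was computed for dim genes alone, so nothing is read from the count. The list genes given below were picked after their values had been seen. Mogat2, the intestinal monoacylglycerol acyltransferase that re-esterifies the products of lipid hydrolysis, had 66.6, 85.5 and 55.9 in the UDCA pools against 30.6, 32.2 and 29.2 in the control pools, and its groups did not overlap. Lipe, the hormone-sensitive lipase, had 35.6, 45.2 and 41.6 in the UDCA pools against 49.6, 56.0 and 48.4 in the control pools. Mgll, the monoacylglycerol lipase, had 145, 124 and 27.5 in the UDCA pools against 19.1, 29.8 and 36.7 in the control pools, with UDCA pool 5+6 among the control values.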
